A study of Mus musculus with 10 samples.

Results

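The genes described here are adiponectin, its receptors and their signal partners: Adipoq, Adipor1, Adipor2, Cdh13, Appl1, Prkaa1, Prkaa2, Prkab1 and Ppara. They are 9 of 19938 genes that had a probe set of their own symbol alone, they were listed by name, and each was measured by 1 probe set. The series asked how marrow cells respond to adiponectin, and its title names contamination with lipopolysaccharide, a bacterial endotoxin. RNA levels were read on 10 mouse arrays from Affymetrix that probe whole transcripts. In 5 cultures, recombinant mouse adiponectin from a commercial supplier was added to 5 µg/ml, and RNA was taken after 4, 10, 24, 72 and 120 h. In 5 control cultures, described as vehicle-treated or untreated, RNA was taken at the same times. All 10 cultures were marrow cells from the long bones of male Swiss mice aged 4 to 6 weeks, and all were grown in serum with calcitriol, the vitamin D hormone. The labels do not say whether cultures came from separate or pooled animals, and the p-values therefore cover the spread among these 10 cultures alone. The protein and any endotoxin in its preparation cannot be told apart in this design.

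Adiponectin is a hormone that fat cells secrete in multimers, and in marrow it is also made by adipocytes and cells of the stromal lineage. Adipor1 and Adipor2 encode seven-pass membrane receptors of the PAQR family, and Cdh13 encodes T-cadherin, a cadherin held to the membrane by a lipid anchor that binds the larger multimers. Appl1 encodes an adaptor that docks on the receptors. Downstream, the energy sensor AMPK is a kinase made of a catalytic subunit (Prkaa1 or Prkaa2), a beta scaffold subunit (such as Prkab1) and a gamma subunit that binds nucleotides, while Ppara encodes a nuclear receptor that turns on fatty acid oxidation.

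The arrays had median levels over named genes of 8.27 to 8.48 on the deposited log2 scale, and the arrays of a pair correlated across genes at r = 0.987 to 0.993 (genes are not independent replicates). All 8 of 8 listed endotoxin-inducible genes rose in adiponectin cultures by 0.80 to 3.47 (limma, adjusted p at most 0.0169), a list chosen with results of these data known, and Il6 lost its call without the 24 h pair (adjusted p = 0.0767). The marrow label was checked against marker lists: neutrophil markers averaged 10.06 to 12.87 in adiponectin cultures and 9.98 to 13.14 in control cultures, and B cell markers 8.91 to 10.50 and 8.88 to 10.57. Macrophage markers averaged 12.35 to 12.59 in adiponectin cultures and 12.12 to 12.27 in control cultures. Of these 9 markers, 6 were higher and 3 lower on average with adiponectin (-0.64 to 0.98). Only Fcgr1 and Siglec1 passed, both upward (limma, adjusted p under 0.05). Kdr of 11 endothelial markers also passed upward and Atp6v0d2 of 10 osteoclast markers downward, beside 2.05% and 0.371% of all genes. Kdr lost its call without the 24 h pair (adjusted p = 0.0750). No separate detection call was used, and the log2 scale has no true zero.

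Of the 9 genes, 3 changed with time in culture: Adipoq rose, and Prkaa2 and Prkab1 fell. The slope is the log2 change per doubling of the hours, with treatment as a term in a limma fit over all 19938 genes. Across all genes 18.5% passed this test (9.81% upward and 8.67% downward), so the count of 3 of 9 stands beside that share, with no test of the list. A second test, for any difference among the 5 times, was passed by 14.4% of all genes and by the same 3 of the 9. Promoter windows of these 3 genes are shown first, because they are the genes whose level moved with time. The windows run from 250 bases before to 50 bases after the gene start, are read on the gene's strand 5′ to 3′, and are from RefSeq (build GRCm38.p6). Capitals mark matches to CCAAT or GGGCGG on either strand. The window of Adipoq is chr16:23146286-23146585 on the plus strand, that of Prkaa2 is chr4:105109849-105110148 on the minus strand, and that of Prkab1 is chr5:116024379-116024678 on the minus strand.
Adipoq: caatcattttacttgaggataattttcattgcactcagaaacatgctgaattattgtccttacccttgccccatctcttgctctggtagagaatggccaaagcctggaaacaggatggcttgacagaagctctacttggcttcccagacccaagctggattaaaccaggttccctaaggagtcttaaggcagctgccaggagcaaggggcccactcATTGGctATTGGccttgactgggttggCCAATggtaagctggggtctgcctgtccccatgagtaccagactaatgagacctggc
Prkaa2: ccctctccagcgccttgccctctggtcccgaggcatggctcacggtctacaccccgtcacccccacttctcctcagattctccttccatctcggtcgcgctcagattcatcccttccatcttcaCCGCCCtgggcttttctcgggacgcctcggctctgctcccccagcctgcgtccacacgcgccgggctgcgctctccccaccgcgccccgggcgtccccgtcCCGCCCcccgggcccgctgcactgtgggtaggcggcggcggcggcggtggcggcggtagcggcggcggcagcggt
Prkab1: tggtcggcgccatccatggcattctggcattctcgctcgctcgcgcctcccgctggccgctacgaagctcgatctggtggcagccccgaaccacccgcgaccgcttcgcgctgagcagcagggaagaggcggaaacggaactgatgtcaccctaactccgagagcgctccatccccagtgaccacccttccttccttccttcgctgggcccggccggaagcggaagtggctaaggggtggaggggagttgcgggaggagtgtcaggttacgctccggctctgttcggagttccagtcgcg

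The Adipoq window differed in base composition from the AMPK windows. It had a GC content of 50% and 0 CpG dinucleotides, against 72.7% and 35 for Prkaa2 and 65.3% and 30 for Prkab1. Over all 32851 windows the medians were 52.67% and 7. Adipoq held 3 CCAAT matches, with first bases at -34 and -27 on the minus strand and -7 on the plus strand relative to the gene start, and Prkaa2 held 2 GGGCGG matches. Neither TATAAA nor AGGTCA, the hexamer that many nuclear receptors recognise, was found in these 3 windows, and Prkab1 held none of the 4 motifs. Of all windows, 37.4% held CCAAT, 35.7% GGGCGG, 16.3% AGGTCA and 13.6% TATAAA on either strand. No matches overlapped in these windows, and a match only describes the letters. Windows were given for 7 of the 9 genes, with 8 windows because Adipor1 had 2. The Adipor1, Adipor2, Prkaa1 and Ppara windows had GC contents of 61% to 82%, above that of Adipoq.

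Adipoq, the ligand's own gene, had the widest range of the 9. In adiponectin cultures its level was 7.29 at 4 h, 7.23 at 10 h, 7.38 at 24 h, 8.06 at 72 h and 10.05 at 120 h. In control cultures it was 7.57, 7.12, 7.74, 9.16 and 10.59 at the same times. Both series were lowest within the first 24 h and highest at 120 h. Between 4 and 120 h the level rose by 2.76 in adiponectin cultures (6.78-fold) and by 3.02 in control cultures (8.09-fold). These folds start from a dim level: all 4, 10 and 24 h values lay below the array medians over named genes (8.27 to 8.48). The mean level of Adipoq stood at the 46.0th percentile of named genes. The fitted slope was 0.55 ± 0.10 (SE) per doubling of the hours (limma, adjusted p = 0.00328), and the difference among times spanned 3.14 (adjusted p = 1.16e-05). By mean level the times ran 120, 72, 24, 4 and 10 h, and only the 24 and 4 h ranges overlapped. Each range, here and for the genes below, holds the 2 arrays of a time. The share of all genes with ranges apart is not given here. When the 2 arrays of a time were averaged first, the slope had an adjusted p of 0.0562. It was 0.47 in adiponectin cultures alone (adjusted p = 0.102) and 0.62 in control cultures alone (adjusted p = 0.0354). Without the 120 h pair the slope was 0.29 (adjusted p = 0.0587), and the difference among the other 4 times was 1.43 (adjusted p = 0.0113).

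**Figure D1:**
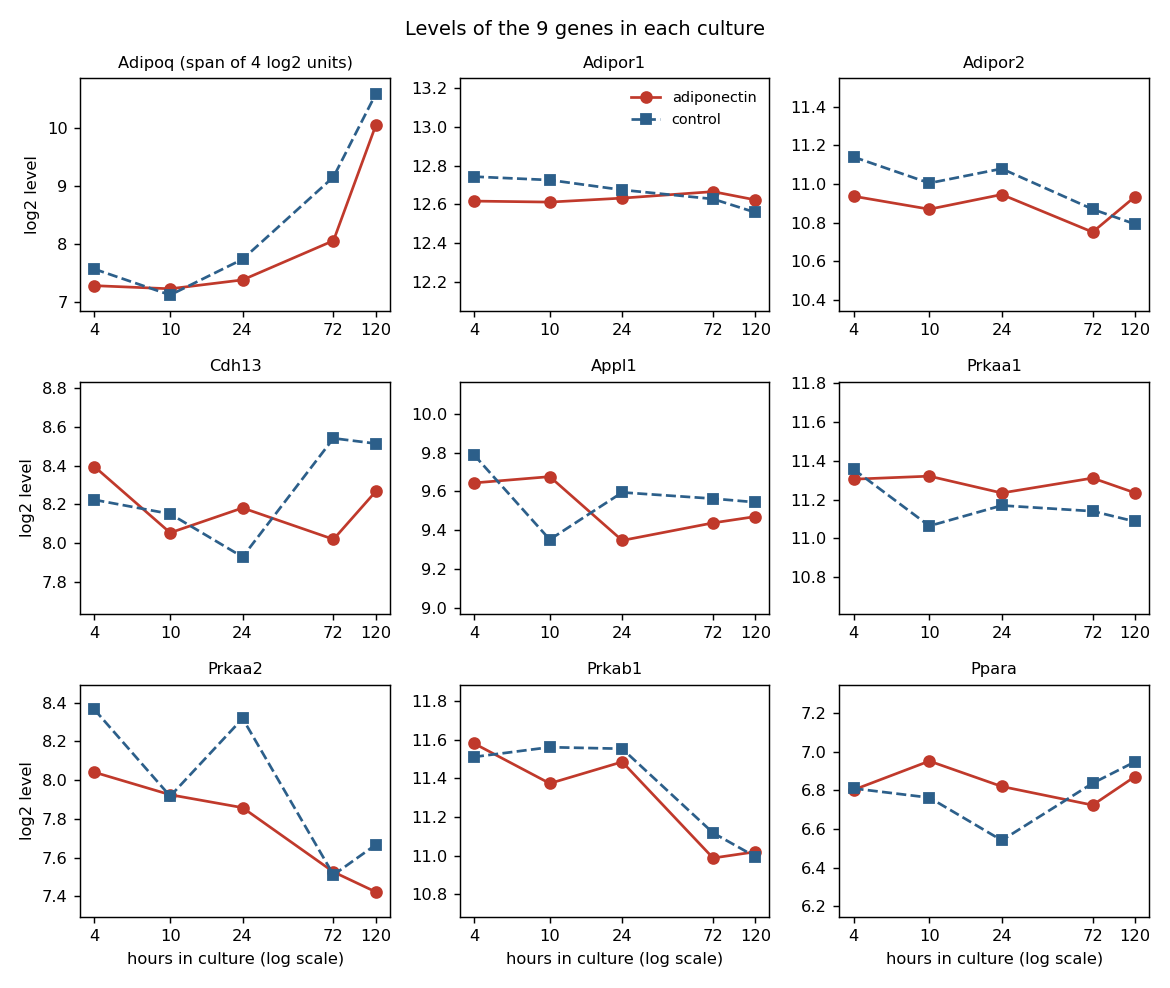
Log2 level of each of the 9 genes (y axis) against hours in culture (x axis, log scale), with 1 point per array, circles for adiponectin and squares for control cultures. Every panel but Adipoq spans the same number of log2 units; Adipoq reaches 10.05 in the adiponectin culture and 10.59 in the control culture at 120 h.

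Most stromal markers rose with time, and 2 of 11 adipocyte markers changed, which is near the 18.5% of all genes that did. Of 11 stromal markers, 7 rose with time and 1 fell: Cxcl12, a chemokine of marrow stroma, had a slope of 0.51 and Pdgfra, a mesenchymal receptor, 0.32 (limma, adjusted p = 0.00119 and 0.000609), while Lum, a proteoglycan, fell (-0.22, adjusted p = 0.0444). Their mean level was 9.52 to 10.49 in adiponectin cultures and 9.42 to 10.34 in control cultures. Of 11 adipocyte markers, Plin4, a lipid droplet coat protein, rose (0.18, adjusted p = 0.00739) and Dgat2, which makes triglyceride, fell (-0.32, adjusted p = 0.000174), with 9 not past the threshold. Lum lost its call without the 4, 72 or 120 h pair (slopes -0.11, -0.26 and -0.15, adjusted p = 0.502, 0.0547 and 0.480), and Plin4 without the 120 h pair (0.09, adjusted p = 0.182). Their mean level was 8.95 to 9.11 in adiponectin cultures and 9.04 to 9.29 in control cultures. Between 4 and 120 h stromal markers changed on average by 0.61 and 0.53 in adiponectin and control cultures, adipocyte markers by -0.03 and 0.22, osteoclast markers by 1.56 and 1.91, and neutrophil markers by -2.81 and -3.15. In bulk cultures more cells of a type and more RNA per cell cannot be told apart, and the part of these shifts in the Adipoq rise was not tested.

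**Figure D2:**
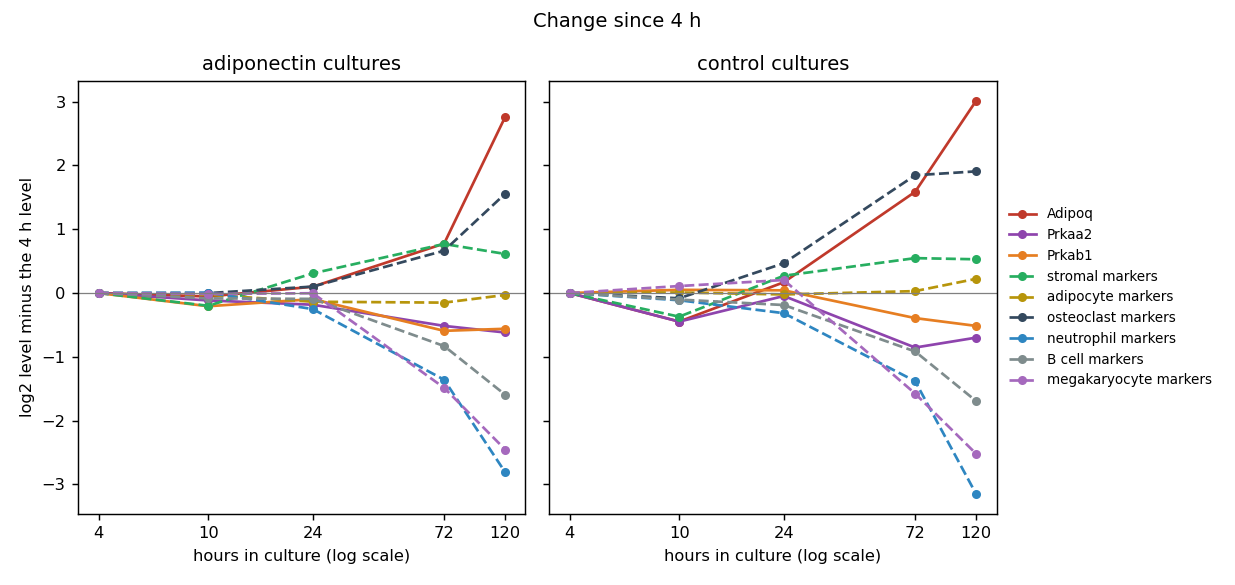
Change in log2 level since 4 h (y axis) against hours in culture (x axis, log scale) in adiponectin cultures (left) and control cultures (right). Solid lines are Adipoq, Prkaa2 and Prkab1, and dashed lines are mean levels of marker lists; at 120 h Adipoq is up by 2.76 and 3.02 while neutrophil markers are at -2.81 and -3.15.

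The receptors did not pass either test of time. Adipor1 was measured at 12.62, 12.61, 12.63, 12.67 and 12.62 from 4 to 120 h in adiponectin cultures, against 12.74, 12.73, 12.68, 12.63 and 12.56 in control cultures. All 10 values lay within a narrow band, and of neighbouring times only 72 and 120 h did not overlap. Its slope was -0.02 ± 0.02 (SE; limma, adjusted p = 0.650), and its mean level stood at the 98.6th percentile of named genes on this array. Adipor2 was measured at 10.94, 10.87, 10.95, 10.75 and 10.93 in adiponectin cultures, against 11.14, 11.01, 11.08, 10.87 and 10.79 in control cultures. The order by time was 4, 24, 10, 120 and 72 h, with every neighbouring pair overlapping, and the slope was -0.04 ± 0.02 (SE; adjusted p = 0.236).

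Cdh13, the T-cadherin gene, was measured at 8.39, 8.05, 8.18, 8.02 and 8.27 from 4 to 120 h in adiponectin cultures, against 8.22, 8.15, 7.93, 8.54 and 8.51 in control cultures. The adiponectin value was above the control value at 4 and 24 h and below it at 10, 72 and 120 h. Every neighbouring pair of times overlapped, and the slope was 0.03 ± 0.03 (SE; limma, adjusted p = 0.709). At 72 h the difference was -0.52 for Cdh13 and -1.10 for Adipoq, each the lowest of its 5 pairs. In the same pair the osteoclast markers averaged -1.20, with 10 of 10 lower in the adiponectin culture. Adipocyte markers averaged -0.14, with 7 lower and 4 higher. Neutrophil markers averaged -0.25, endothelial markers -0.21, erythroid markers -0.15, B cell and megakaryocyte markers 0.02 each and stromal markers 0.15. Macrophage markers averaged 0.33 and T and NK cell markers 0.46. The share of all genes lower in this pair is not given here. With 1 array per group at a time these are values without a test, and the part of the cell types in them was not tested.

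Appl1, the adaptor, was measured at 9.64, 9.68, 9.35, 9.44 and 9.47 in adiponectin cultures, against 9.79, 9.35, 9.60, 9.56 and 9.54 in control cultures. The adiponectin value was above control only at 10 h, and neighbouring times overlapped throughout (slope -0.03 ± 0.02 SE; limma, adjusted p = 0.420). The 10 h pair holds the control array with the lowest median over named genes.

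Of the AMPK subunits, Prkaa2 and Prkab1 fell with time, and Prkaa1 did not pass the test. Prkaa1, the alpha1 catalytic subunit, stayed within 11.23 to 11.32 in adiponectin cultures and 11.06 to 11.36 in control cultures, with a slope of -0.02 ± 0.02 (SE; limma, adjusted p = 0.494). Prkaa2, the alpha2 catalytic subunit, was measured at 8.04, 7.92, 7.86, 7.53 and 7.42 from 4 to 120 h in adiponectin cultures, against 8.37, 7.92, 8.32, 7.51 and 7.67 in control cultures. The 72 and 120 h values of both series lay below all earlier ones. Its slope was -0.14 ± 0.03 (SE; adjusted p = 0.00659), and from 4 to 120 h the level fell by 0.62 in adiponectin cultures and by 0.70 in control cultures. The difference among times was 0.69 (adjusted p = 0.0130). The mean level of Prkaa2 stood at the 39.0th percentile of named genes.

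Prkab1, the beta1 scaffold subunit, was measured at 11.58, 11.37, 11.48, 10.99 and 11.02 in adiponectin cultures, against 11.51, 11.56, 11.55, 11.12 and 11.00 in control cultures. Here too the 72 and 120 h values lay below all earlier ones in both series. The slope was -0.12 ± 0.02 (SE; limma, adjusted p = 0.00477), the level from 4 to 120 h fell by 0.56 in adiponectin cultures and by 0.52 in control cultures, and the difference among times was 0.54 (adjusted p = 0.0112). For both Prkaa2 and Prkab1 the separation lay between the 4 to 24 h values and the 72 and 120 h values, since each early time overlapped the one nearest in level and the later times overlapped each other. This describes ranges of 2 arrays per time, and the share of all genes with such a separation is not given here. The slopes kept their size but missed the threshold in several fits with fewer arrays or values. With the 2 arrays of a time averaged first they were identical (adjusted p = 0.0514 for Prkaa2 and 0.0543 for Prkab1), and without the 120 h pair they were -0.14 and -0.11 (0.0849 and 0.100). Without the 4 h pair that of Prkaa2 was -0.14 (adjusted p = 0.0598). In adiponectin cultures alone the slope was -0.13 for Prkaa2 (adjusted p = 0.0251) and -0.12 for Prkab1 (0.0630), and in control cultures alone -0.15 and -0.12 (0.168 and 0.146). Without the 120 h pair the differences among times were 0.69 for Prkaa2 (adjusted p = 0.0536) and 0.49 for Prkab1 (0.0689). Beside these falls, all 10 of 10 neutrophil markers, 6 of 9 B cell markers and 5 of 6 megakaryocyte markers fell with time. Of all genes, 8.67% fell. Of the 3 steepest falls in each of these lists, Cd79b and Gp9 lost the call without the 120 h pair (limma, adjusted p = 0.144 and 0.0789). Among other lists, 3 of 7 erythroid markers fell, and of 11 endothelial markers 3 fell and 1 rose. Of 9 T and NK cell markers 2 fell and 4 rose, and of 10 osteoclast markers 1 fell and 9 rose. B cell markers changed on average by -1.59 and -1.69 between 4 and 120 h in adiponectin and control cultures, and megakaryocyte markers by -2.45 and -2.52. The part of the cell types in the subunit levels was not tested.

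Ppara was measured at 6.80, 6.95, 6.82, 6.72 and 6.87 in adiponectin cultures, against 6.81, 6.76, 6.54, 6.84 and 6.95 in control cultures. Its mean level stood at the 19.4th percentile of named genes, and all neighbouring times overlapped (slope 0.01 ± 0.02 SE; limma, adjusted p = 0.873).

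None of the 9 genes passed the test of the adiponectin effect, which compared each adiponectin culture with the control culture taken at that time. Across all genes 2.42% passed (2.05% upward and 0.371% downward). An unadjusted p under 0.05 was found for 2 of the 9 and for 2018 of all 19938 genes. The median effect over the 9 was -0.06, beside 0.01 over all genes. The intervals are those of the mean difference at the 95% level, and they set the size of change that these arrays allow. For Adipor1 the mean difference was -0.04 ± 0.09 (SD, n = 5 pairs), with an interval of -0.19 to 0.12, or 0.875 to 1.09 as a fold, and for Adipor2 it was -0.09 ± 0.13, with 0.836 to 1.06 as a fold (limma, adjusted p = 0.938 and 0.820). A p that misses the threshold does not show equal levels.

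Adipoq was lower in the adiponectin culture in 4 of 5 pairs, with differences of -0.29, 0.11, -0.36, -1.10 and -0.54 from 4 to 120 h. The pair that was higher, at 10 h, holds the control array with the lowest median over named genes. Whether array scaling set the sign of that pair was not tested. The mean difference of Adipoq was -0.43 ± 0.44 (SD, n = 5 pairs; interval -0.74 to -0.13; limma, unadjusted p = 0.00946, adjusted p = 0.204), and it was -0.27 without the 72 h pair. Prkaa2 was lower in 3 of 5 pairs and averaged -0.20 ± 0.21 (interval -0.40 to -0.01; unadjusted p = 0.0438, adjusted p = 0.465). Its 10 h pair was higher by only 0.007, and the same limit holds for that sign. Prkaa1, by contrast, was higher in 4 of 5 pairs, by 0.12 ± 0.12 (interval -0.05 to 0.28; adjusted p = 0.71). The means of Cdh13, Appl1, Prkab1 and Ppara lay between -0.09 and 0.05, and none was past the threshold (adjusted p = 0.890 to 0.926).

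**Figure D3:**
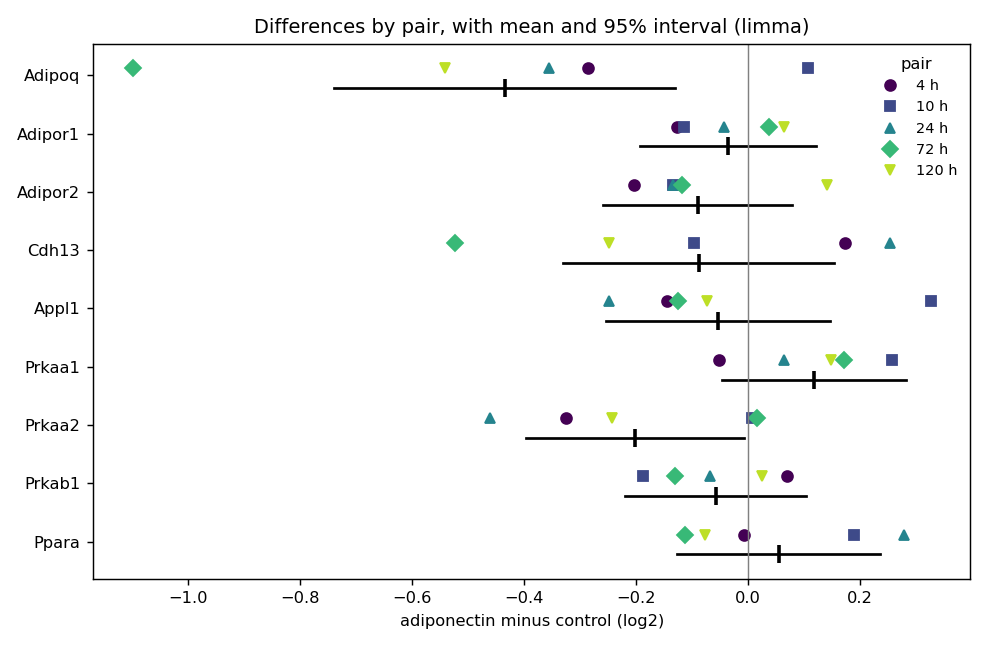
Adiponectin minus control difference in log2 level (x axis) for each of the 9 genes, with 1 symbol per pair (4, 10, 24, 72 and 120 h), and the mean with its 95% limma interval as a bar below. The 72 h pair of Adipoq lies farthest out, at -1.10.

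The change of the difference with time was tested as a slope of the difference against log2 hours. Across all genes 0% passed in limma after adjustment, while 9.83% had an unadjusted p under 0.05, and 0 of the 9 genes did at either. Adipoq had the steepest slope, -0.15 per doubling (adjusted p = 0.507), and Cdh13 had -0.11 (adjusted p = 0.519). Adipor1 and Adipor2 had 0.04 and 0.05 (adjusted p = 0.656 and 0.611).

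Around the 9 genes, 100 of 113 other pathway genes on lists of their known roles were measured, and 6 passed the adiponectin test, 4 upward and 2 downward, beside 2.05% and 0.371% of all genes (2.42% in either direction). Their median effect was -0.01, beside 0.01 over all genes. The risen genes were Nampt, Asah2, Pfkfb3 and Fabp3, and the fallen ones were Prkag2 and Pparg. Nampt encodes an enzyme of NAD salvage that is also released as the adipokine visfatin, and it was the 1 of 16 ligand relatives and adipokines to pass (0.43 ± 0.17, SD, n = 5 pairs; limma, adjusted p = 0.0165). Its level was 12.18, 12.09, 11.90, 11.68 and 11.56 in adiponectin cultures, against 11.57, 11.63, 11.72, 11.30 and 11.03 in control cultures, so each pair was higher.

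Asah2, a ceramidase, was the 1 of 17 receptor-proximal genes to pass. It was measured at 9.07, 9.54, 9.64, 10.24 and 10.09 in adiponectin cultures, against 9.08, 8.55, 9.27, 9.56 and 9.42 in control cultures. Its mean difference was 0.54 ± 0.38 (limma, adjusted p = 0.0493), with 4 of 5 pairs higher and the 4 h pair nearly level. Pfkfb3, an enzyme that drives glycolysis and is phosphorylated by AMPK, was the 1 of 17 AMPK targets to pass, by 0.54 ± 0.18 (adjusted p = 0.00478), with 5 of 5 pairs higher. It kept its call without any 1 pair. Among 9 other PAQR receptors none passed, the widest difference being Paqr4 at -0.26 ± 0.15 (adjusted p = 0.187).

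Prkag2, the gamma2 subunit of AMPK, was the 1 of 11 other AMPK subunits and upstream kinases to pass. Its level was 9.20, 9.33, 9.33, 9.31 and 9.60 in adiponectin cultures, against 9.82, 9.37, 9.95, 10.02 and 10.04 in control cultures. The adiponectin value was lower in 5 of 5 pairs, with differences of -0.63 at 4 and 24 h and -0.05 at 10 h, and the mean was -0.49 ± 0.27 (limma, adjusted p = 0.0256). Camkk2, an upstream kinase of AMPK, was at 0.30 ± 0.23 (adjusted p = 0.179).

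Pparg, the master regulator of fat cell formation, was the 1 of 7 PPAR-related receptors and cofactors to pass. Its level was 10.12, 10.17, 10.22, 10.65 and 11.01 in adiponectin cultures, against 11.14, 10.79, 10.87, 10.88 and 11.12 in control cultures. All 5 pairs were lower, most at 4 h and least at 120 h (mean -0.53 ± 0.36; limma, adjusted p = 0.0475). Among 23 PPAR-alpha targets, Fabp3, a fatty acid binding protein, passed at 0.63 ± 0.38 (adjusted p = 0.0204). Pdk4, which curbs glucose oxidation, had -0.66 ± 0.55 (adjusted p = 0.0772) and Acaa2, a thiolase of fatty acid oxidation, -0.35 ± 0.22 (adjusted p = 0.0801). Pdk4 and Acaa2 each passed in 2 of 12 alternative fits (limma, lowest adjusted p = 0.0277 and 0.0395).

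**Figure D4:**
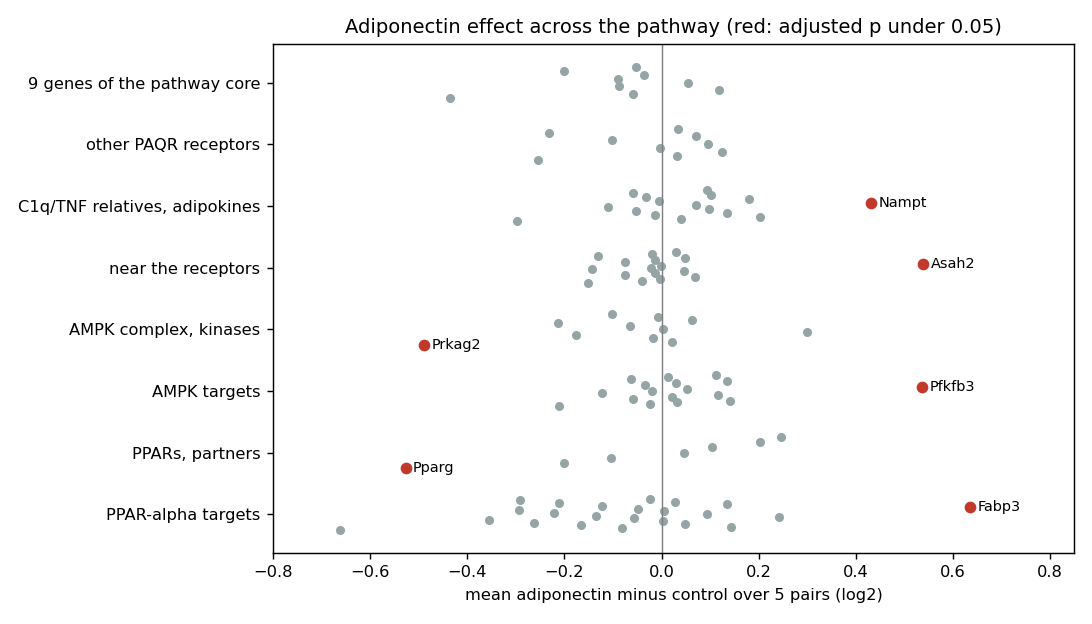
Mean adiponectin minus control difference in log2 level over 5 pairs (x axis) for the 9 genes and 100 other pathway genes, grouped by role (y axis), 1 point per gene. Red points passed the test at an adjusted p under 0.05 (Nampt, Asah2, Pfkfb3, Fabp3, Prkag2 and Pparg), and none lies in the top row, the 9 genes.

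Of these 6, all but Pfkfb3 lost the call in some fits with 1 pair left out, which also hold fewer arrays, while the differences stayed of similar size. Nampt lost it without the 4, 10 or 120 h pair (difference 0.39 to 0.42, adjusted p = 0.0600 to 0.0657). Fabp3 lost it without the 10 or 24 h pair (0.55 and 0.53, adjusted p = 0.0852 and 0.103), and Pparg without the 4, 10 or 24 h pair (-0.50 to -0.40, adjusted p = 0.119 to 0.216). Asah2 lost it without any pair but the 4 h one (0.43 to 0.58, adjusted p = 0.123 to 0.163), and Prkag2 without any but the 10 h one (-0.50 to -0.43, adjusted p = 0.0683 to 0.134).

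**Figure D5:**
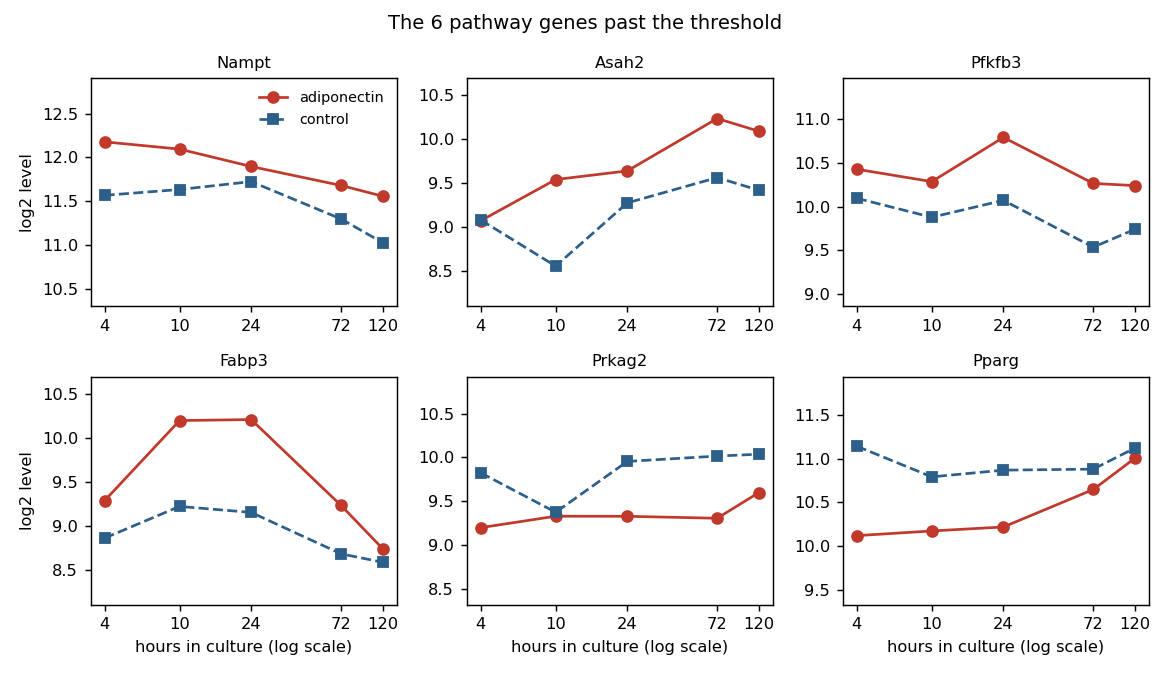
Log2 level of the 6 pathway genes past the threshold (y axis) against hours in culture (x axis, log scale), 1 point per array, circles for adiponectin and squares for control cultures. Pparg and Prkag2 lie lower in the adiponectin culture in 5 of 5 pairs, and Nampt, Pfkfb3 and Fabp3 higher.

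With time in culture, 22 of the 100 other pathway genes rose and 8 fell, beside 9.81% and 8.67% of all genes, so the falls were near the share over all genes. Among ligand relatives 6 rose and 2 fell, including a rise of C1qa, a complement component of macrophages (slope 0.26; limma, adjusted p = 0.000132), and of C1qtnf1, a relative of adiponectin (0.28, adjusted p = 0.000723). Of 17 receptor-proximal genes, 5 rose and 2 fell, with Irs1, an insulin receptor substrate, at 0.38 and Cdh2, N-cadherin, at 0.33 (adjusted p = 0.000188 and 0.000134). Of the 11 AMPK complex genes, 0 rose and 3 fell (Camkk2, Stradb and Cab39l, slopes -0.08, -0.07 and -0.07), and Prkag2 did not pass (0.07, adjusted p = 0.124). With 1 pair left out, the call of Cab39l was lost in 5 of 5 fits and those of Camkk2 and Stradb in 4 of 5 each (adjusted p up to 0.240, 0.227 and 0.482), and the slope of Stradb was -0.04 without the 4 h pair. Of 23 PPAR-alpha targets, 6 rose and 0 fell, with Pdk4 at 0.49 and Angptl4, a lipase inhibitor, at 0.17 (adjusted p = 9.74e-05 and 0.000691). Of 9 other PAQR receptors, Paqr4 rose (0.13) and Paqr7 fell (-0.12), and both calls were lost without the 120 h pair (slopes 0.09 and -0.11, adjusted p = 0.169 and 0.0888).

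By the correlation of levels over the 10 arrays, the genes most like Adipoq were Jam2, Gnao1 and Dag1 (Pearson r = 0.991, 0.989 and 0.988). Those most like Prkaa2 were Cd3d, Pheta2 and Agbl5 (0.979, 0.968 and 0.966), and those most like Prkab1 were Ppif, Nrd1 and Esam (0.985, 0.985 and 0.984). The other 6 genes had lower best values, with Adipor1 nearest to Tnfrsf21 (0.923), Adipor2 to H2ac4 (0.947), Cdh13 to D430041D05Rik (0.951), Appl1 to Zfp644 (0.967), Prkaa1 to Utp23 (0.963) and Ppara to Bmp3 (0.968). The arrays share time and treatment, so these are descriptions of likeness over 10 arrays, with no test.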

How the data were processed

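Expression was measured on 10 arrays, 1 adiponectin and 1 control culture at each of 5 times. The deposited values are log2 levels per probe set that the authors made, and RMA, Affymetrix Expression Console and Partek are named per the submitters' processing notes. Versions, order and genome build were not given in these sources. Of 35556 probe sets, 21789 had 1 symbol, 1621 several and 12146 none in the platform annotation. A check of Entrez IDs against RefSeq left 91 outside it and changed 0 symbols. For 999 genes the probe set with the highest mean was used, which left 19938 genes, with no filter on dim ones.

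Every test was two-sided and ran in limma 3.58.1 under R 4.3.3, using lmFit with eBayes and Benjamini-Hochberg adjustment over all genes (threshold 0.05). The adiponectin effect had time as a block of 5 levels, so pairs are the cultures that the labels give the same hour. For its change with time, an interaction of treatment with log2 hours was added. Time in culture was the log2 hours slope, and the difference among times an F test, both with treatment as a term. Time tests without a block count the 2 arrays of a time as independent. Single times have 1 array per group and no test. The number of arrays limits the precision, and the SD over pairs also holds any change of the effect with time.

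Members, gene lists, tests and alternatives were chosen with earlier results of these data known. A rule set which genes could be named, and not every gene it picked is named in the text. It took all 9 members and, in each list, those past the threshold for the effect or its change with time. It also took the 3 widest mean differences of each list and the 3 steepest time slopes in each direction past the threshold. All endotoxin-inducible genes were included, as were the 3 genes most correlated with each member. Alternatives covered the time block, normalization, prior, filter, probe set rule, treatment subsets and leaving out each pair. Tests were also run on simulated data, with results not given here. The simulated noise was independent between arrays, so these runs cannot address arrays of a time that vary together.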

Additional observations from a re-analysis of the deposited data

Results flagged for a closer look

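In Adipor2 the 120 h pair stood apart from the other 4 pairs: its adiponectin minus control difference was 0.1411, against -0.20 to -0.12 in the pairs from 4 to 72 h. Of 27 sets of values tested for 1 value far from the rest, 1 was noted (3.7%), and chance gives about 1 in 20. In Adipor1 the differences at 4, 10 and 24 h were all below 0 (mean -0.09) and those at 72 and 120 h all above 0 (mean 0.05), a late minus early difference of 0.145617. Such a split of signs was found in 1 of the 9 genes (11.1%) and in 3033 of 19938 genes (15.2%). The slope of the Adipor1 difference over time did not pass in limma (adjusted p = 0.656), and the split itself was not tested.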

How the results depend on the processing

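No member passed the adiponectin test under any alternative run. The 6 calls among the members and other pathway genes became 0 without the time block (no replicate block) and 3 with log2 hours in its place, and 2 to 5 when 1 pair was left out. Over all 12 alternatives the count of these calls ran from 0 to 8. The 3 members that changed with time became 0 when both arrays of a time were averaged first, 1 in control arrays only, 1 in adiponectin arrays only and 1 among genes above the median level, and 0 to 3 with 1 pair left out. The filter removes Adipoq, Cdh13, Prkaa2 and Ppara. The 33 calls for time among all 109 genes became 18, 9 and 14 under the first 3 of these, and 10 to 32 with 1 pair left out. Over all 13 alternatives the calls for time ran from 9 to 37. For the difference among times, 3 members became 1 under the filter and 1 to 3 with 1 pair left out, and 25 calls became 11 to 26. Among fits that left out 1 pair, the lowest counts for both time tests came without the 120 h pair. Fewer arrays or genes enter these fits, and the cause was otherwise not tested. Values that turned sign were small, and none of these was past the threshold. With 1 pair left out, the adiponectin effect ran from -0.174 to 0.0201 for Cdh13, -0.337 to 0.00980 for Cdh5 and -0.00196 to 0.0959 for Ppara. The change of the effect with time ran from -0.0905 to 0.0142 for Appl1, -0.0173 to 0.0451 for Prkaa1, -0.0130 to 0.0446 for Prkaa2 and -0.0345 to 0.0421 for Prkab1. It was 0.0118 for Ppara after repeated quantile normalization and 0.00891 for Prkab1 with arrays centred on their medians. The time slope ran from -0.0487 to 0.000613 for Appl1, -0.00649 to 0.0871 for Cdh13 and -0.0170 to 0.0171 for Ppara. In adiponectin arrays only it was 0.00603 for Adipor1, -0.0278 for Cdh13 and -0.00959 for Ppara, and for Ppara it was -0.00386 after repeated quantile normalization and -0.00480 with centring. Rescaling the arrays moved the median effect of all genes by under 0.1. No measure of signal over background was used, and a small difference for dim Ppara does not show that it was unaltered.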
